A study of Mus musculus with 9 samples.

Results

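The genes described here are 49 mouse genes of the G1/S transition and of DNA replication, taken by symbol from a deposited table of 26146 genes. Each symbol was found once, and all 49 passed the filter on low values (FPKM of at least 1 in at least 3 libraries), with FPKM of 3.49 to 159 in single libraries. FPKM counts fragments per kilobase of transcript, scaled to the fragments of the library, a level that can be set side by side between genes. Their messengers were sequenced from poly(A) RNA of RAW264.7, a macrophage line of mouse origin that divides in culture, in 9 libraries. Of these, 3 are titled Normal, 3 come from cells exposed to lipopolysaccharide (LPS), a component of bacterial outer membranes, and 3 from cells exposed to LPS together with an extract used in Traditional Chinese Medicine. The labels state no plant, dose or exposure time, and they contradict each other on which treated libraries received the extract. For samples titled LPS, the label cites the ET columns and yet gives M as library name. For samples titled LPS+Extract, it cites the M columns and yet gives ET. Group names here follow the columns, as Normal, ET and M. Taken by column, the extract was in M and ET had only LPS, and taken by library name the extract was in ET and M had only LPS. All 3 groups are the same cell line, and nothing in the labels says whether replicates came from separate cultures, so p-values measure the spread between these libraries, which may be technical.

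DNA replication is licensed in G1, when the origin recognition complex, Cdc6 and Cdt1 load the MCM2-7 helicase onto DNA. At the G1/S transition cyclin E and its kinase act with E2F transcription factors, and Cdc45 and GINS join MCM2-7 to form the active CMG helicase. Polymerase alpha-primase then lays down primers, PCNA and its loader RFC hold polymerases delta and epsilon on DNA, and Fen1 and Lig1 join the lagging strand fragments. Many of these genes are known E2F targets and are expressed mainly in dividing cells. In a bulk sample, fewer cells in S phase and less RNA per cell cannot be told apart.

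Because many genes of this kind are described as E2F targets, the window from 250 bases before to 50 bases after the transcript start was taken from RefSeq (GRCm38.p6), which held windows for 41 of the 49 genes. Ccne2, Prim2, Mcm4, Gins2, Gins1, Gins4, Rfc2 and Pole were not matched. The E2F letters searched on both strands were TTTGGCGC, TTTGCCGC, TTTCGCGC and TTTCCCGC, and matches of different motifs may share bases. They stood in 16 of the 41 genes (39.0%), against 2.6% of the 27025 genes with a window. The 6 windows below are shown because they span the range of expression changes among these 16 genes, the 3 lowest and the 3 highest. This choice was made after the values were seen. Each is written 5′ to 3′ on the gene's strand, with the matching letters in capitals. Matches on the reverse strand read as the reverse complement of the letters searched. E2f2 lies at chr4:136172024-136172323 (plus strand), Gins3 at chr8:95633309-95633608 (plus strand) and Pold1 at chr7:44548766-44549065 (minus strand). Cdc6 lies at chr11:98907901-98908200 (plus strand), Cdc25a at chr9:109875329-109875628 (plus strand) and Orc1 at chr4:108579204-108579503 (plus strand).
E2f2: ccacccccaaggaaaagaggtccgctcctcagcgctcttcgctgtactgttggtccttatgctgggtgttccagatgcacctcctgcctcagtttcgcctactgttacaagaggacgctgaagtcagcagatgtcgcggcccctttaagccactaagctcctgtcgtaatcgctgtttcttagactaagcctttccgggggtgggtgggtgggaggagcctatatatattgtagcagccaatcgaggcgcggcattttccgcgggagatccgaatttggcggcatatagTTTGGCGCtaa
Gins3: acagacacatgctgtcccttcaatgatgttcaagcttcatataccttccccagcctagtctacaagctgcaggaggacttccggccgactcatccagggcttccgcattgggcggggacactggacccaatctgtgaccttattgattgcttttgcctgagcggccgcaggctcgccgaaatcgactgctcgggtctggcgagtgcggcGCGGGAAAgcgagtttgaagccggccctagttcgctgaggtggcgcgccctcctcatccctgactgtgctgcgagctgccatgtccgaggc
Pold1: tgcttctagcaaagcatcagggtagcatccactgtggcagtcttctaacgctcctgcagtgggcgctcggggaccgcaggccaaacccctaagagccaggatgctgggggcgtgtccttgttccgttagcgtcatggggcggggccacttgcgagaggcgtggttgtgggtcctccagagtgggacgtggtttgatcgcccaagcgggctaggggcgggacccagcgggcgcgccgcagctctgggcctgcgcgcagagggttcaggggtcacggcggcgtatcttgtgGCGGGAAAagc
Cdc6: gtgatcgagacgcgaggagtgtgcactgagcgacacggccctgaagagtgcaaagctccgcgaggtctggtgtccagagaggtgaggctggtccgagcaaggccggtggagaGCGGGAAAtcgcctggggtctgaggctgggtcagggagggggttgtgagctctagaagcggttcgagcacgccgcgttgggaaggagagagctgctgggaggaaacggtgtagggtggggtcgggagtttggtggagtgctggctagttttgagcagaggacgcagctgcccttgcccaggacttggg
Cdc25a: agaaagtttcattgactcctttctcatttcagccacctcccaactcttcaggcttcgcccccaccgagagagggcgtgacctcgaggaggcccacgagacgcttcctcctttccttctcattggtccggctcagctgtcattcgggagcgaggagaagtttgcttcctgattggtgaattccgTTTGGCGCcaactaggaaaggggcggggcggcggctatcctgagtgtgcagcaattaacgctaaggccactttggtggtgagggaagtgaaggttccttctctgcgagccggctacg
Orc1: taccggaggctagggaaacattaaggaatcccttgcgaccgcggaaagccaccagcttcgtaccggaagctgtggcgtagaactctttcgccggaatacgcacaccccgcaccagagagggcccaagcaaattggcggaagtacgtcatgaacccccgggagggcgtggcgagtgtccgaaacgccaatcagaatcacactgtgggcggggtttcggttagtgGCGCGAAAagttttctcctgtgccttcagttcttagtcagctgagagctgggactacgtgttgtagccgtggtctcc

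The same letters stood in the windows of genes that moved in different directions. In the mean of ET and M against Normal, on the log2 scale, E2f2 changed by -1.53, Gins3 by -1.20 and Pold1 by -0.91, whereas Cdc6 changed by -0.10, Cdc25a by -0.01 and Orc1 by 0.38. Among the 16 genes with a match, 14 were called lower and the median change was -0.58. Among the 25 genes with a window and no match, 20 were called lower and the median was -0.32. Over all tested genes 36.8% were called lower. The NF-Y letters CCAAT stood in 63.4% of the 41 genes against 41.1% of all genes, and the Sp1 letters GGGCGG in 80.5% against 38.2%. The letters TTTGAA of the CHR element, known from genes of late cell cycle, stood in 14.6% against 20.2%, and TATAAA in 7.32% against 15.7%. The medians with and without CCAAT were -0.42 and -0.41, and those with and without GGGCGG were both -0.42. For TTTGAA they were -0.59 in 6 genes and -0.41 in 35, and for TATAAA -0.31 in 3 genes and -0.43 in 38.

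By the deposited table, whose positions for these genes equal GENCODE M21 on GRCm38, E2f2 spans chr4:136172394-136196057, Mcm2 chr6:88883474-88898780, Gins3 chr8:95633453-95645060, Tk1 chr11:117815526-117826092, Rrm2 chr12:24708241-24714146 and Ccne1 chr7:38097984-38107534. Total counts per library were 55039858 to 76242718, and each of the 49 genes had 705 to 34184 counts in every library. Normal stood apart from both treated groups on the first principal component, which held 90.5% of the variance. On the second, ET replicate 3 lay at 7.22 and the other ET libraries at 14.7 and 17.1. Its counts also differed more from those of the other ET libraries (chi-square of 26.2 and 21.4 per gene) than ET replicates 1 and 2 differed from each other (14.5), so the calls among the 49 genes between M and ET are given with and without it. The LPS-responsive genes Nos2, Il6, Tnf and Il1b were called higher in both treated groups. Among 9 tested macrophage markers the treated mean was called higher for 4 and lower for 3, and the summed FPKM of 10 markers ranged from 2036 to 2155 (Normal), 2504 to 2683 (the ET group) and 2428 to 2480.0 (the M group). The 3 lymphocyte markers in the table summed to at most 1.38 FPKM. The 11 fibroblast, epithelial and endothelial markers in the table summed to between 0.841 and 0.981 (Normal), 6.33 and 6.47 (the ET group) and 7.71 and 9.53 (the M group). Lum and Pecam1 were the tested ones, and Lum was at 0 in all Normal libraries. The part of these markers in the results below was not tested.

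Most replication genes were lower in both treated groups than in Normal, by modest amounts. In the mean of ET and M against Normal, 38 of the 49 genes were called lower, 4 higher and 7 neither (edgeR's quasi-likelihood test, Benjamini-Hochberg adjusted p under 0.05). Over all 11536 tested genes 36.8% were called lower and 36.8% higher. The median log2 change of the 49 was -0.41, against -0.01 over all tested genes. ET against Normal gave 35 lower and 3 higher (all genes 35.2% and 35.0%), with a median of -0.37. M against Normal gave 39 lower and 4 higher (all genes 34.5% and 35.5%), with a median of -0.40. These 2 comparisons share the Normal libraries. At a threshold of 1.5-fold the calls fell to 13 lower and 1 higher in the treated mean, where all tested genes gave 13.0% lower and 17.2% higher. Of the 49, 4 genes, E2f2, Tk1, Gins3 and Gins1, were more than 2-fold lower, a cut at which no share of all tested genes was taken.

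**Figure D1:**
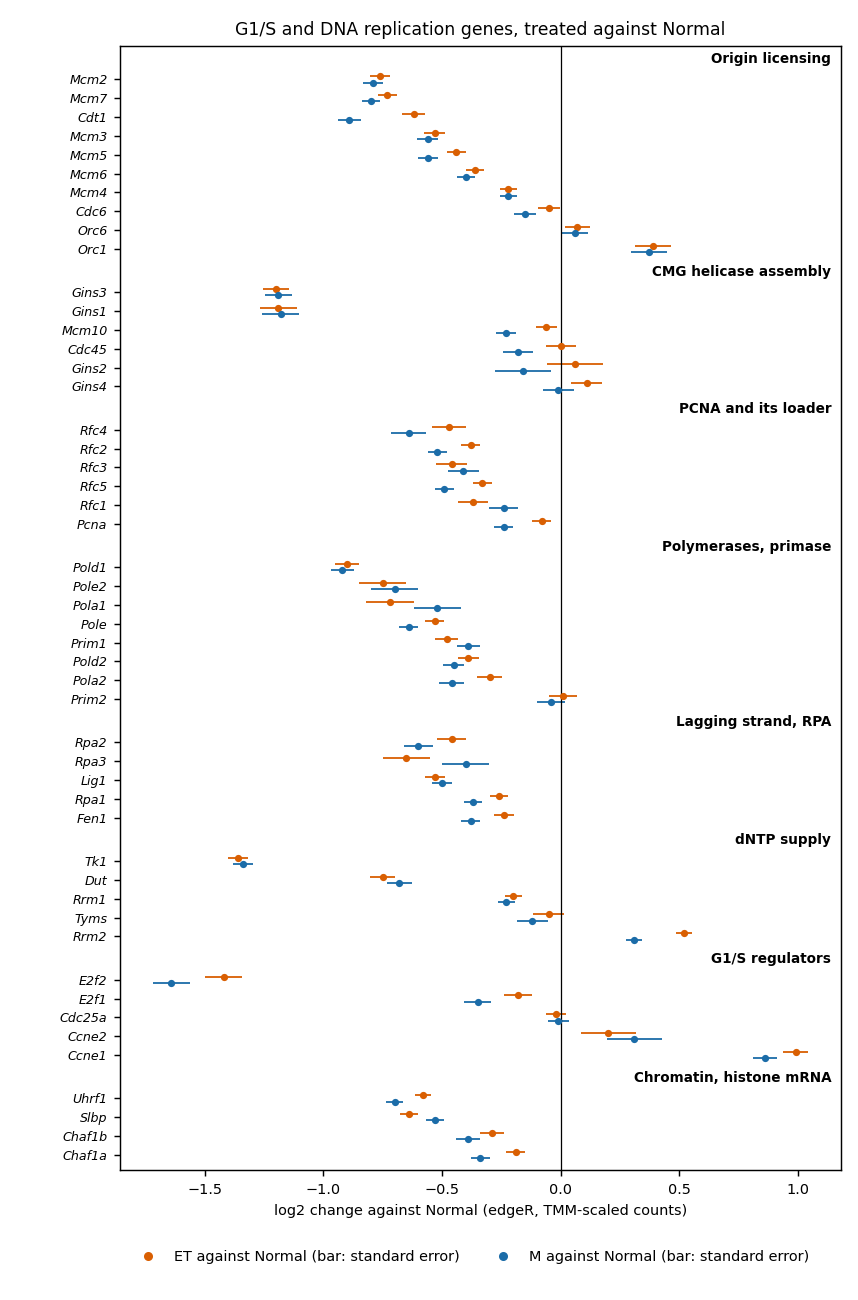
log2 change against Normal of each of the 49 genes, grouped by role, for ET (orange) and M (blue), with bars of 1 standard error from the edgeR fit. Most points lie left of 0, E2f2 and Tk1 lie farthest left, and Ccne1, Rrm2 and Orc1 lie right of 0 in both groups.

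The summed FPKM of the 49 genes lay between 1668 and 1715 for Normal, between 1259 and 1311 for ET and between 1192 and 1214 for M. The groups did not overlap in this sum. Without Pcna, the most abundant member in every group, the sums were 1515 to 1557, 1123 to 1172 and 1069 to 1084. In single genes, FPKM without overlap was common. All ET libraries lay below all Normal libraries in 39 of the 49 genes, against 42.8% of all tested genes. For M this held in 41, against 43.9%. ET lay above Normal in this way in 3, against 31.2%, and M in 4, against 32%. FPKM scaling shifted the median change of all genes by -0.08 in the treated mean.

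Of the 10 origin licensing genes, 8 were called lower in the treated mean and 1 higher, with a median log2 change of -0.44. For this and each role below, all tested genes gave 36.8% lower and 36.8% higher. All of Mcm2 to Mcm7, the subunits of the ring-shaped helicase, fell, and so did Cdt1, which loads them. Mcm2 had the lowest value of the group. Its FPKM was 45.3, 43.4 and 44.8 in Normal, 24.9, 25.3 and 24.3 in ET, and 22.9, 25.6 and 24.5 in M, so that both treated groups were lower without overlap while ET and M overlapped. The log2 change of the treated mean was -0.77 ± 0.035 (SE, n = 3 libraries per group, edgeR adjusted p = 5.37e-10). Mcm7 changed by -0.76, Mcm3 by -0.54, Mcm5 by -0.50, Mcm6 by -0.38 and Mcm4 by -0.22. Cdc6, the loading ATPase, changed by -0.10 (edgeR adjusted p = 0.0376). It was called lower in M and not in ET, and lost the call of the treated mean under 9 alternatives. M against ET was not called for Cdc6 (-0.11, edgeR adjusted p = 0.174).

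Orc1, the largest subunit of the origin recognition complex, went the other way. Its FPKM was 6.92, 7.09 and 7.62 in Normal, 9.82, 8.94 and 8.05 in ET, and 9.03, 8.58 and 8.77 in M. Every treated library was above every Normal library, and the log2 change was 0.38 ± 0.066 (SE, edgeR adjusted p = 0.000204). Orc6, another subunit, stayed between 18.4 and 20.2 FPKM in all 9 libraries and was not called. Orc6 overlaps Vps35 on the opposite strand, and the strand setting of the counting is unknown. Called genes overlap others in this way too, among them Mcm7 (Cops6, at most 38.2 FPKM) and Rfc4 (Eif4a2, at most 46.5 FPKM). Of the other origin recognition subunits, which are not among the 49, Orc2 was called higher in the treated mean, and Orc3, Orc4 and Orc5 were not called there. In ET alone, Orc3 (-0.20) and Orc4 (-0.22) were called lower than Normal, and in M they were not called. The ET call of Orc4 (edgeR adjusted p = 0.0385) was lost without any 1 of the Normal libraries, ET replicate 1 or ET replicate 2, with adjusted p of 0.0642 to 0.161. Orc2 was called higher in M (0.22) and not in ET (0.10). M against ET itself was not called with all 9 libraries for Orc2 (0.12, edgeR adjusted p = 0.238) or Orc4 (0.12, 0.446). Orc3 was also higher in M than in ET (0.31, edgeR adjusted p = 0.00543, and 0.36 without ET replicate 3).

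**Figure D2:**
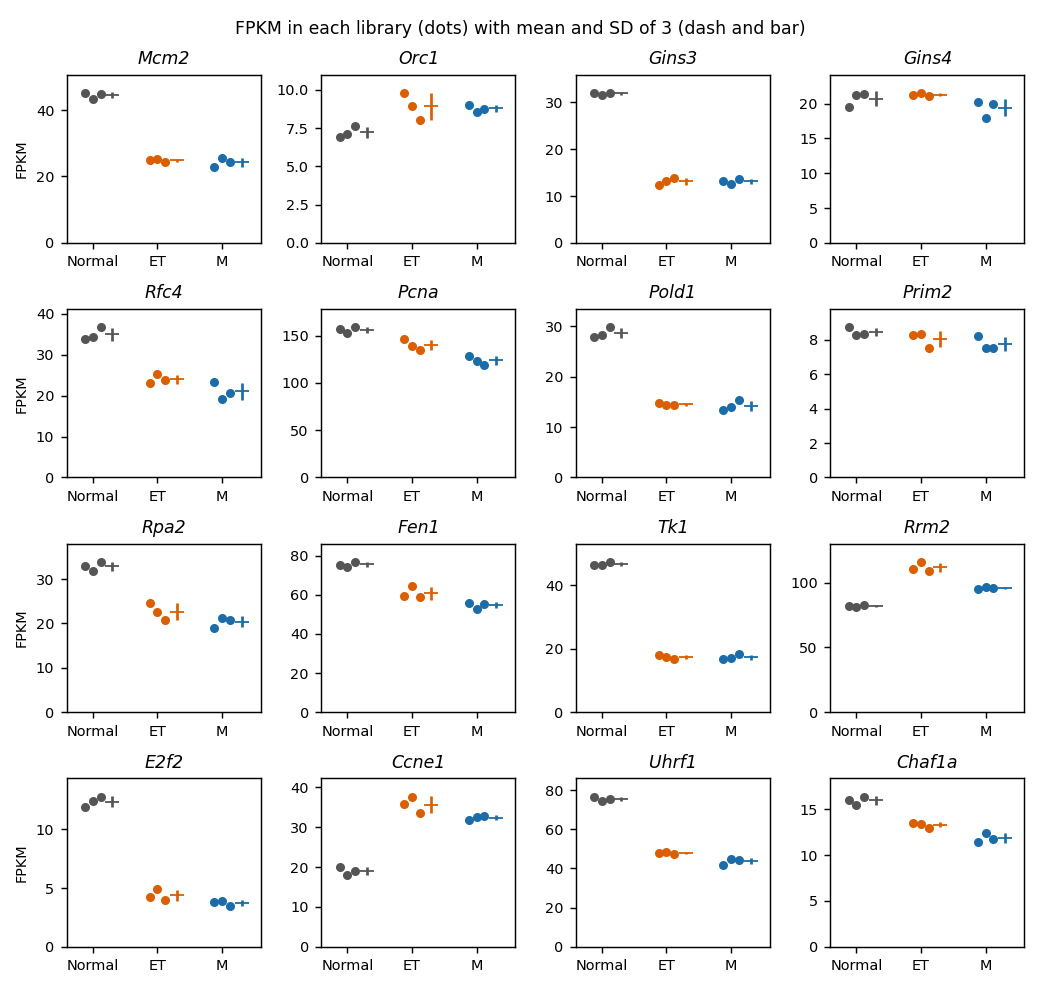
FPKM in each library for the genes with the lowest and the highest change in each role, from 0 on a linear axis, with dots for libraries and a dash and bar for the mean and SD of 3. Mcm2, Gins3, Tk1 and E2f2 lie well below Normal in every treated library, Ccne1 and Rrm2 lie above it, Gins4 overlaps it in ET and M, and Prim2 overlaps it in ET with M just below.

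The 6 genes of CMG helicase assembly divided. Gins1 and Gins3 fell by 1.18 and 1.20 on the log2 scale, whereas Gins2 and Gins4, which encode the other subunits of the same 4-part GINS complex, were not called. Gins3 FPKM was 32.0, 31.6 and 32.1 in Normal, 12.4, 13.2 and 13.9 in ET, and 13.2, 12.5 and 13.7 in M. The treated libraries lay far below Normal and overlapped each other (log2 change -1.20 ± 0.046 SE, edgeR adjusted p = 1.08e-10). Gins4 FPKM was 19.5, 21.3 and 21.4 in Normal, 21.2, 21.6 and 21.1 in ET, and 20.2, 18 and 20.0 in M, and Normal overlapped both treated groups, while M lay below ET (treated mean 0.05 ± 0.057 SE, edgeR adjusted p = 0.427). Gins2 lay between 10.4 and 11.9 for Normal and between 11 and 11.5 for ET, and for M it was 10.9, 7.29 and 10.4, with M replicate 2 below all other libraries. Gins2 overlaps Gse1 on the opposite strand. Mcm10, an assembly factor, fell by 0.14 in the treated mean, and was called lower in M (-0.23) and not in ET (-0.06, edgeR adjusted p = 0.235). Cdc45, the remaining CMG component, was not called in the treated mean (-0.09, edgeR adjusted p = 0.159). Its change in ET was 0.00. It was called lower in M (-0.18, edgeR adjusted p = 0.0228), a call lost without Normal replicate 1 (adjusted p = 0.0540), Normal replicate 3 (0.108) or M replicate 3 (0.0869). Cdc45 overlaps Ufd1.

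All 6 genes of the sliding clamp and its loader were called lower in the treated mean, with a median log2 change of -0.42. The loader gene Rfc4 was lowest, at 33.8, 34.3 and 36.7 FPKM in Normal, 23.0, 25.2 and 23.7 in ET, and 23.3, 19.2 and 20.6 in M. Its treated libraries did not overlap Normal (-0.55 ± 0.062 SE, edgeR adjusted p = 3.98e-06). Rfc1, Rfc2, Rfc3 and Rfc5 changed by -0.30 to -0.45. Pcna, the clamp itself, changed least. It was 157, 153 and 159 FPKM in Normal, 146, 139 and 135 in ET, and 129, 123 and 119.5 in M, with no overlap between any groups (-0.16 ± 0.035 SE, edgeR adjusted p = 0.00102). ET alone was not called against Normal for Pcna (-0.08, edgeR adjusted p = 0.0877). The processed pseudogene Pcna-ps2 reached at most 4.51 FPKM, and reads shared with it could not be assigned.

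Of the 8 polymerase and primase genes, 7 were called lower, with a median of -0.51. Pold1, the catalytic subunit of polymerase delta, was lowest, at 27.9, 28.2 and 29.8 FPKM in Normal, 14.8, 14.4 and 14.3 in ET, and 13.4, 13.9 and 15.3 in M. Normal stood apart from both treated groups, which overlapped (-0.91 ± 0.041 SE, edgeR adjusted p = 4.85e-10). Pole2 changed by -0.73, Pola1 by -0.62, Pole by -0.59, Prim1 by -0.44, Pold2 by -0.42 and Pola2 by -0.38. Prim2, the large primase subunit, was not called, at 8.73, 8.25 and 8.36 FPKM in Normal, 8.26, 8.34 and 7.53 in ET, and 8.20, 7.5 and 7.55 in M (-0.02 ± 0.051 SE, edgeR adjusted p = 0.790). ET overlapped Normal, and all M libraries lay below the lowest Normal library, though M against Normal was not called (-0.04, edgeR adjusted p = 0.592). In Pola1, the catalytic subunit of polymerase alpha, ET replicate 3 had 6.25 FPKM and the other ET libraries 4.66 and 4.71.

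The 5 genes of lagging strand processing and single-stranded DNA binding were all called lower, with a median of -0.51. Rpa2, a subunit of the single-strand binding protein RPA, was 33.0, 31.8 and 33.9 FPKM in Normal, 24.7, 22.6 and 20.8 in ET, and 19.0, 21.3 and 20.8 in M (-0.53 ± 0.053 SE, edgeR adjusted p = 1.20e-06). The treated libraries lay below Normal and overlapped each other. Fen1, the flap endonuclease, changed least, at 75.5, 74.5 and 76.9 in Normal, 59.2, 64.8 and 58.8 in ET, and 55.9, 53.0 and 55.3 in M (-0.31 ± 0.036 SE, edgeR adjusted p = 6.22e-06). Its 3 groups did not overlap, with M lowest. Rpa3, Lig1 and Rpa1 changed by -0.52, -0.51 and -0.32.

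Of the 5 genes of deoxynucleotide supply, 3 fell and 1 rose, beside 36.8% of all tested genes in each direction. Tk1, the thymidine salvage kinase, was 46.4, 46.3 and 47.3 FPKM in Normal, 17.9, 17.4 and 16.6 in ET, and 16.8, 16.9 and 18.2 in M. It was 2.55-fold lower in the treated mean (-1.35 ± 0.035 SE, edgeR adjusted p = 2.12e-12), with a wide gap to Normal and overlap of ET and M. Rrm2, the small subunit of ribonucleotide reductase, which makes deoxynucleotides, was 82.1, 81.1 and 82.7 in Normal, 110.2, 116 and 109 in ET, and 94.7, 96.4 and 95.9 in M. Rrm2 was higher in every treated library, and the 3 groups did not overlap (0.41 ± 0.029 SE, edgeR adjusted p = 3.61e-08). Rrm1, which encodes the large subunit, changed by -0.22, and Dut, which removes dUTP, by -0.71. Tyms, thymidylate synthase, was not called (-0.09, edgeR adjusted p = 0.181).

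The 5 G1/S regulators held both extremes of the 49 genes. E2f2, an activating E2F factor, was 11.9, 12.4 and 12.8 FPKM in Normal, 4.28, 4.9 and 4.0 in ET, and 3.79, 3.94 and 3.49 in M. Every ET library was above every M library, and all were below Normal (treated mean -1.53 ± 0.064 SE, edgeR adjusted p = 2.30e-10, 2.88-fold). E2f1 changed by -0.26. Ccne1, cyclin E1, was 20.0, 17.9 and 18.9 in Normal, 35.7, 37.7 and 33.6 in ET, and 31.7, 32.6 and 32.8 in M, 1.9-fold higher in the treated mean (0.93 ± 0.047 SE, edgeR adjusted p = 1.49e-09), again with no overlap of the 3 groups. Ccne2, cyclin E2, lay between 10.4 and 11.3 for Normal, between 9.41 and 13.4 for ET and between 11.7 and 14.2 for M. Its treated mean was called higher (0.26 ± 0.101 SE, edgeR adjusted p = 0.0366), ET overlapped Normal, and the call was lost under 12 alternatives. Cdc25a, the phosphatase that activates the cyclin E kinase, was not called (-0.01, edgeR adjusted p = 0.769).

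The 4 genes of chromatin assembly and histone messenger processing were all called lower, with a median of -0.46. Uhrf1, which recruits the maintenance DNA methyltransferase, was 76.7, 74.3 and 75.3 FPKM in Normal, 47.8, 48.3 and 47.4 in ET, and 41.9, 45.0 and 44.2 in M (-0.64 ± 0.030 SE, edgeR adjusted p = 6.43e-10), with no overlap between groups. Chaf1a, a subunit of the CAF-1 histone chaperone, changed least, at 16, 15.5 and 16.4 in Normal, 13.5, 13.4 and 13 in ET, and 11.4, 12.4 and 11.8 in M, with no overlap between groups (-0.26 ± 0.034 SE, edgeR adjusted p = 1.44e-05). Slbp, the histone stem-loop binding protein, changed by -0.58, and Chaf1b by -0.34.

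Subunits of a complex were also set against each other. Ratios of 2 genes within a library do not depend on how libraries are scaled, so the log2 ratio of counts was formed for all 44 pairs of subunits in 9 complexes and compared between the 6 treated and 3 Normal libraries. These pairs were chosen after the fall of Gins1 and Gins3 beside Gins2 and Gins4 had been seen. In GINS, the log2 ratio of Gins3 to Gins4 was 1.63 ± 0.08 (SD) in Normal and 0.38 ± 0.10 in the treated libraries, a difference of -1.25, while that of Gins1 to Gins3 moved by 0.01. In ribonucleotide reductase the ratio of Rrm1 to Rrm2 moved by -0.63, and in polymerase delta that of Pold1 to Pold2 by -0.49. Within MCM2-7, Mcm2 to Mcm4 moved by -0.55 and Mcm2 to Mcm7 by -0.01. In RFC the largest of 10 differences was 0.25.

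These differences are given as values. In an exact permutation test over libraries, two-sided, 21 of the 44 pairs reached p = 0.0238, the smallest that 6 against 3 libraries allow, with an adjusted p of 0.0499 over the 44 pairs. Over the 38 pairs outside GINS, 17 shared that smallest p, with an adjusted p of 0.0532. No pair outside GINS thus passed without the pairs that prompted the comparison, and the GINS pairs are not independent evidence. Pairs that share a subunit are not independent of each other.

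**Figure D3:**
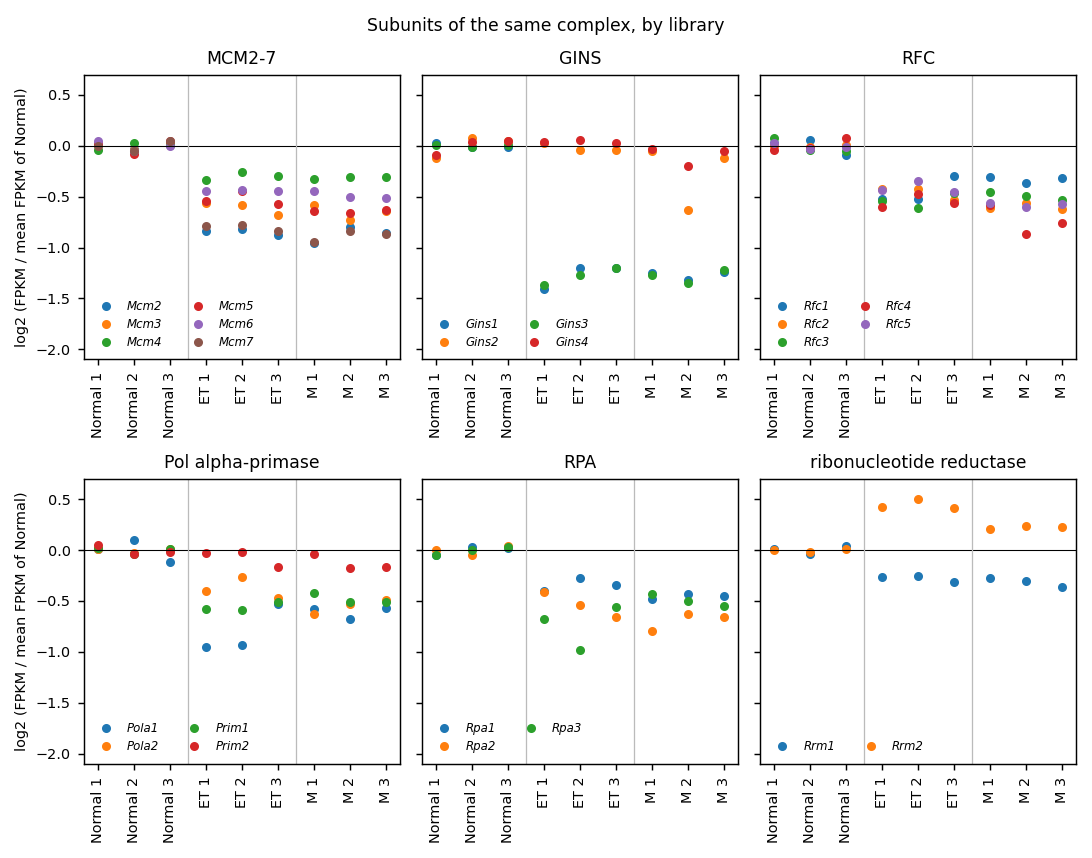
log2 of FPKM over the mean FPKM of Normal, for each subunit in each of the 9 libraries, in 6 complexes. Gins1 and Gins3 lie more than 1 unit below Gins2 and Gins4 in every treated library except M replicate 2, where Gins2 is also low, Rrm2 lies above 0 and Rrm1 below it, and the RFC subunits lie closer together.

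Levels within some complexes also changed order by mean FPKM. In GINS the most abundant messenger by mean FPKM was Gins3 in Normal, at 31.9, and Gins4 in ET and M, at 21.3 and 19.4. In polymerase alpha-primase the least abundant was Prim2 in Normal, at 8.45, and Pola1 in ET and M, at 5.20 and 5.92. In Normal replicate 3, however, Pola1 (8.30) was already just below Prim2 (8.36). In ribonucleotide reductase the order did not change, and the ratio of Rrm2 to Rrm1 FPKM was 2.1 in Normal, 3.46 in ET and 3.05 in M.

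M and ET differed little. Of the 49 genes 6 were called lower in M than in ET and none higher, against 4.12% lower and 4.97% higher over all tested genes, with a median log2 change of -0.07 against 0.00. At unadjusted p under 0.05, 20 were lower and 2 higher, against 11.3% and 14.2% of all tested genes. If the library names are right and the columns wrong, the LPS and extract roles of these groups are exchanged. The 6 were Cdt1 (-0.27 ± 0.049 SE), Rrm2 (-0.21), Mcm10 (-0.17), Pcna (-0.16), Rfc5 (-0.16) and Chaf1a (-0.15), with edgeR adjusted p of 0.00208 to 0.0347. Cdt1 FPKM was 48.3, 46.3 and 49.4 in Normal, 31.1, 29.6 and 28.4 in ET, and 25.6, 23.2 and 24.3 in M, so M lay lowest without overlap. Rrm2, which rose in both treated groups, rose less in M, and Cdt1, which fell in both, fell more. Mcm10 was 10.3, 10.1 and 10.2 in Normal, 9.58, 9.20 and 8.98 in ET, and 8.41, 7.87 and 8.26 in M. Rfc5 was 25.6, 24.6 and 24.9, then 18.6, 19.8 and 18.3, then 17, 16.5 and 16.9 in the same order of groups. In both genes M was below ET in every library. Such a gap was not rare. All M libraries lay below all ET libraries in 23 of the 49 genes, against 16% of all tested genes. They lay above in 2, against 12.7%.

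The count of calls between M and ET rested on single libraries. Without ET replicate 3 it was 15 lower (6.13% of all tested genes) and 3 higher (9.72% of all tested genes), the 3 being Rfc1 (0.20), Pola1 (0.35) and Rpa3 (0.33), and the median was -0.10. At unadjusted p under 0.05 that fit gave 22 lower and 4 higher, against 13.2% and 16.5% of all tested genes. Without ET replicate 1 the count was 2 lower (all genes 2.46%), and without ET replicate 2 it was 2 (2.12%). Without M replicate 2 it was 3 (2.71%), and without M replicate 3 it was 2 (2.14%). DESeq2 called 15 lower (6.82%). Cdt1 and Rrm2 were called in each of these fits. In 38 of the 49 genes, ET replicate 3 was the ET library nearest to the M mean, against 7 for ET replicate 1 and 4 for ET replicate 2. The same count was not made over all tested genes, so whether it is particular to the 49 is not known. On the second principal component, taken over all tested genes, ET replicate 3 (7.22) was also the ET library nearest to M (-11.5 to -13.7).

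**Figure D4:**
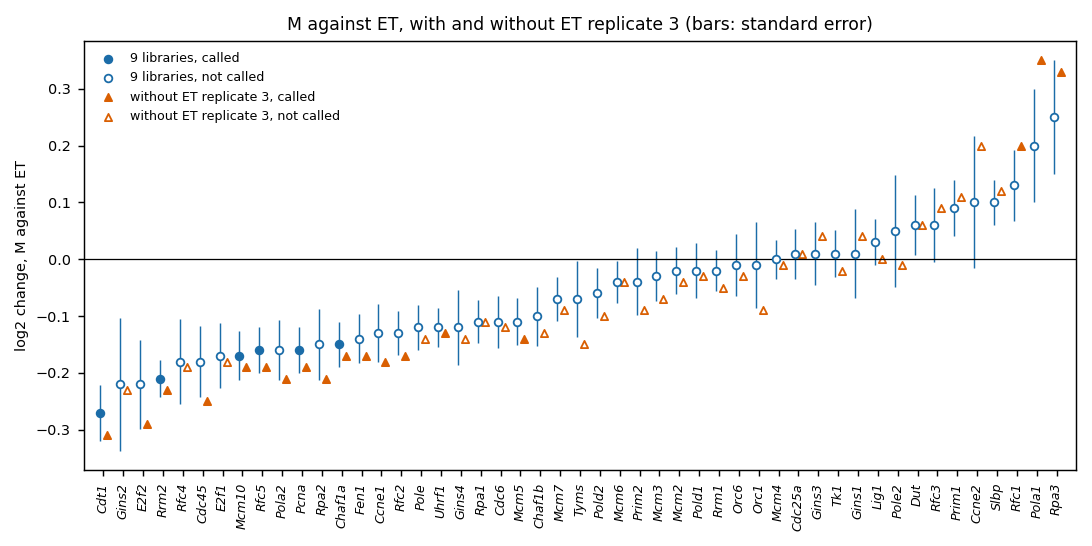
log2 change of M against ET for each of the 49 genes, with all 9 libraries (circles, bars of 1 standard error) and without ET replicate 3 (triangles), filled where the adjusted p was under 0.05. With all libraries 6 genes are filled, all below 0, and without ET replicate 3 there are 15 filled below 0 and 3 above.

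Other genes of replication and the cell cycle, from lists of pathway members, gave the following. Each list stands beside 36.8% lower and 36.8% higher over all tested genes in the treated mean. Of 39 further replication factors, 29 were called lower and 4 higher in the treated mean, with a median log2 change of -0.42. Dnmt1, the maintenance DNA methyltransferase, had 113 ± 1.72 FPKM (SD, n = 3) in Normal and fell to 55.4 ± 1.33 (ET) and 50.5 ± 0.839 (M). Gmnn, the inhibitor of Cdt1, changed by -0.81 and Topbp1, which acts in origin firing, by -0.72. Pold4, a small subunit of polymerase delta, rose by 1.22, in contrast to Pold1. In the KEGG term for DNA replication, 25 of 35 genes are among the 49, and of the other 10, 8 were called lower and 1 higher.

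Of 16 tested E2F and Rb family genes 12 were called lower and 1 higher, with a median of -0.37. Tfdp2, an E2F partner, changed by -1.53, and Rbl1 and Rb1, pocket proteins that bind E2F factors, by -0.65 and -0.43. E2f8, an atypical E2F repressor, changed by -0.82 and was lower in M than in ET (-0.29, edgeR adjusted p = 0.00472, and -0.32 without ET replicate 3). Of 16 tested genes of cyclins, CDKs, CDK inhibitors and related regulators, Myc among them, 8 were lower and 7 higher, beside 36.8% of all tested genes in each direction. Myc, at 0.150 ± 0.0982 FPKM in Normal, was at 7.85 ± 0.245 in ET and 6.94 ± 1.29 in M. Ccnd2, cyclin D2, rose by 3.01, Cdkn1a, a CDK inhibitor also called p21, by 1.84 and Cdk6 by 1.15, whereas Skp2, the ubiquitin ligase subunit that targets p27, changed by -1.19. The other tested CDK inhibitors went both ways. Cdkn1b, which is p27, changed by -0.92 and Cdkn2c by -0.84, and Cdkn2d rose by 0.56. Ccnd1, cyclin D1, was higher in ET than in M (M against ET -0.24, edgeR adjusted p = 0.003, and -0.25 without ET replicate 3). Of 15 other nucleotide metabolism genes 7 were lower and 7 higher, again beside 36.8% in each direction. Samhd1, which degrades deoxynucleotides, rose by 0.35, and Dtymk, thymidylate kinase, changed by -0.44. Of 9 S phase checkpoint genes 6 were lower and 1 higher, with Wee1, which restrains CDKs, at -1.43. Of 21 G2/M genes 20 were lower and none higher (median -0.43), and the proliferation marker Mki67 had 74.3 ± 2.11 FPKM in Normal, 25.3 ± 3.54 (ET) and 30.5 ± 2.49 (M).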

How the data were processed

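Poly(A) RNA of 9 RAW264.7 libraries in 3 groups was sequenced on a dUTP-marked, paired-end protocol, per the labels. The deposited table holds whole-number counts per gene and library, which the authors made with a tool and strand setting not given in the sources used here, and FPKM values per the file headers. The submitters' processing notes name cutadapt 1.9, HISAT2 2.2.1, StringTie 2.1.6, DESeq2 and edgeR. No genome build is named there or in the labels (not given in the sources used here), and chromosome, start, end and strand equalled GENCODE M21 (GRCm38) for 22699 of 26146 genes and 40 of the 49. Of the 49, 12 overlap a gene that reaches 1 FPKM, 11 of them on the opposite strand. With the strand setting of the counting unknown, it is not known whether reads of these 11 pairs were told apart. On the opposite strand these are Ccne2, Cdc45, Chaf1a, Fen1, Gins2, Mcm7, Orc6, Rfc2, Rfc4, Rfc5 and Tk1, and on the same strand Pold1, where shared reads could not be told apart.

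The test took the 11536 genes that reached an FPKM of 1 in 3 or more of the 9 libraries, and used edgeR 4.0.16 in R 4.3.3 on the counts, with TMM factors, quasi-likelihood tests over all tested genes and Benjamini-Hochberg adjustment at 0.05. Standard errors are the log2 change divided by the root of F. Alternatives used DESeq2 1.42.0, limma 3.58.1 on log2(FPKM + 1) and log2(FPKM + 0.1), other scalings, filters and thresholds, a replicate block, and leaving out each library. Permutation tests used scipy 1.17.1. Each column was matched to the sample whose label cites it. The members and lists were chosen with earlier results of these data known, and the subunit pairs and the choice of promoters shown were made after values were seen. Values in every library are given for the genes with the lowest and the highest change in each role and for those called between M and ET. No pairing by replicate number was seen. Correlations of deviations were -0.05 to 0.08 between same-numbered libraries and -0.08 to 0.09 between others. With 3 libraries per group this cannot exclude that same-numbered libraries were handled together. No 2 libraries of a group agreed within sampling noise, at a chi-square of 11.2 to 26.2 per gene.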

Additional observations from a re-analysis of the deposited data

How the results depend on the processing

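At a threshold of 1.5-fold, genes called fell to 13 lower and 1 higher in the treated mean, 13 and 1 in ET, and 14 and 1 in M against Normal, and to 0 between M and ET. No share of all genes was taken at 1.5-fold for ET or M. Apart from that threshold, 37 to 41 were lower and 3 to 4 higher in the treated mean, 34 to 38 lower and 3 to 4 higher in ET, and 37 to 40 lower and 3 to 4 higher in M. The share of all genes called lower moved far more. In ET it was 16.5% without a filter and 41.8% by limma on log2(FPKM + 1). In M it was 16.2% without a filter and 41.3% by total counts. In the treated mean it was also lowest without a filter, and it reached 43.8% by total counts. Between M and ET, genes called lower numbered 2 without a filter (1.03% of all genes), 15 by DESeq2 (6.82%) and 3 with only the groups compared (3.63%). They numbered 2 at an adjusted p of 0.01, where no share of all genes was taken. When each library was left out they numbered 2 to 15 (2.12% to 6.13%), with 0 to 3 higher. The cause was not tested. A fit with replicate block gave 38 lower and 3 higher in the treated mean and 5 lower between M and ET. The block thus moved no count by over 1.5 times. Total counts in place of TMM shifted the median of all genes by -0.09 and FPKM scaling by -0.08, and under both Cdc45 and Tyms were called lower in the treated mean. No called change reversed. Changes that were not called changed sign in 13 cases for the treated mean, 25 for ET, 11 for M and 34 for M against ET. In Cdc6 the treated call was lost under 9 alternatives and in Ccne2 under 12. Subunit pairs at the smallest adjusted p numbered 21 by counts and by FPKM and 0 when adjusted without the GINS pairs, since fewer pairs share the smallest p, and with a library left out the threshold could not be reached.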
